A study of Mus musculus with 6 samples.

Results

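This account covers 9 receptor tyrosine kinase genes altered in lung cancer outside the ErbB and FGF receptor families, Ros1, Met, Mst1r, Ret, Axl, Kit, Igf1r, Ddr1 and Epha2, with Hgf, the gene of the Met ligand. These 10 genes were picked by symbol, and all 10 were found among the 18238 genes of the deposited tables. RNA-seq covered 6 tumour-bearing mice, of which 3 had received artemisinin (artemisinin replicates 1 to 3) and 3 are listed as model only (model replicates 1 to 3). Artemisinin is an antimalarial compound from the plant Artemisia annua. The disease is shared by both groups, and the strain, age, dose, duration, tissue sampled and the way the tumours were raised are not stated. The labels give lung cancer under the heading of cell type, and alveolar type 2 markers were abundant in all 6 libraries.

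Receptor tyrosine kinases are cell surface proteins that pair up when a ligand binds, phosphorylate each other and recruit adaptor proteins inside the cell. MET, the receptor for hepatocyte growth factor (HGF), and RON, the receptor encoded by Mst1r, are close relatives and mostly act in epithelium, while HGF is made mainly by mesenchymal cells. In human lung adenocarcinoma ROS1 and RET are activated by gene fusion and MET by exon skipping or amplification. AXL is known for resistance to inhibitors of other kinases.

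Libraries held 25566173 to 34745497 counts, and 3 counts stood for at most 0.117 CPM (counts scaled to a common library size). Artemisinin replicate 1 had the most club cell transcripts, replicate 2 was alone in high skeletal muscle and keratinocyte transcripts, and replicate 3 had the most neutrophil transcripts. The biological coefficient of variation, a measure of spread between mice, was 0.389 in the artemisinin group and 0.211 in the model group. Levels within a gene are given as normalised CPM, meaning counts divided by an effective library size (total multiplied by the TMM factor). Levels between genes are given as FPKM, the deposited values per gene length and library total. Changes were tested with the quasi-likelihood test of edgeR, adjusted by Benjamini-Hochberg over 15242 genes, and a gene was called at an adjusted p under 0.05.

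All 10 genes passed the filter on low counts. Ros1 and Met fell with artemisinin, and no other member was called. Of all tested genes 4.47% were called, 2.3% as lower and 2.17% as higher. Without adjustment, 3 members were lower and 1 was higher at p under 0.05, where 24.7% of all tested genes were. Members called higher numbered 0 by edgeR, limma-voom and limma on FPKM and 1 by DESeq2. The median log2 fold change of the 10 genes was −0.30, against 0.04 over all tested genes. In 4 members (Ros1, Met, Hgf and Epha2) all artemisinin values in normalised CPM lay below all model values, and in 2 (Mst1r and Igf1r) above them. For Hgf this depended on the scaling. In FPKM its groups overlapped, with an artemisinin maximum of 8.93 and a model minimum of 8.19. Of all tested genes 17.3% were separated with artemisinin below, 16.3% with artemisinin above and 33.6% either way.

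**Figure D1:**
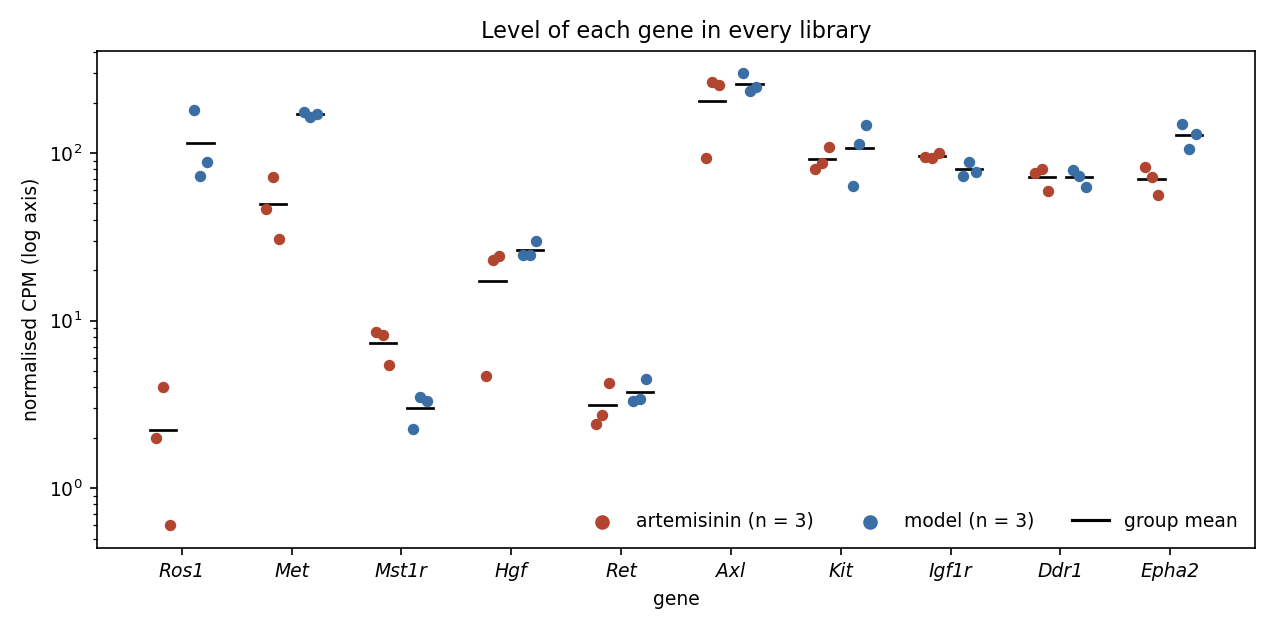
Normalised CPM on a log axis for each gene, with a point for each library, artemisinin left of model, and a bar at the group mean. Ros1 and Met are far apart between the groups, while Ret, Axl, Kit and Ddr1 overlap.

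The stretches upstream of Ros1, Met and Mst1r are shown because the first and second were the members that fell and the third belongs to the closest relative of Met and pointed the other way. They are the 250 bases before the RefSeq transcript start in GRCm38.p6, written 5′ to 3′ on the strand of the gene. The gene bounds given here are those of the RefSeq gene table and begin upstream of the transcript starts used for these windows, which therefore lie partly (Ros1, Mst1r) or wholly (Met) within them. RefSeq promoters matched 9 of the 10 members, all but Ret. Capitals mark motif matches on either strand.
Ros1 (chr10:52195245-52195494, minus strand): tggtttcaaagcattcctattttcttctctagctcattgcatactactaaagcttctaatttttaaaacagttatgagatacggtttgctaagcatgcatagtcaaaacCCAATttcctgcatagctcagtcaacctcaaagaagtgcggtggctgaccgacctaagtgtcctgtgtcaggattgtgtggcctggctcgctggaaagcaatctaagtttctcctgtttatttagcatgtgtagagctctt
Met (chr6:17463707-17463956, plus strand): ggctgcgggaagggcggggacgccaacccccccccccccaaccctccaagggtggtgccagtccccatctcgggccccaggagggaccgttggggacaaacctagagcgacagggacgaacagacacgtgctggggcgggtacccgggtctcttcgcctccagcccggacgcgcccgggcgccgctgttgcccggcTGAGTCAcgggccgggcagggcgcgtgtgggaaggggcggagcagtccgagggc
Mst1r (chr9:107906639-107906888, plus strand, the more upstream of 2 starts): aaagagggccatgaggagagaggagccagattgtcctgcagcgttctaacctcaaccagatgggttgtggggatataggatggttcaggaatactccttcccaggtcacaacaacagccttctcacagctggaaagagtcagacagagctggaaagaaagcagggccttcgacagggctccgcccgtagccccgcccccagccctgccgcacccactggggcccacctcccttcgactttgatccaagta
Met had 24 CpG dinucleotides in this window, Ros1 had 4 and Mst1r had 7, against a median of 6 over 32851 promoters. The motifs searched were TNAAGTG for NK2 homeodomain factors, TTGCNNAA for C/EBP factors, TGANTCA for AP-1 and CCAAT. AP-1 letters were present in Met, from 54 to 48 bases before the start, and in 6.75% of all promoters. CCAAT was present in Ros1, from 141 to 137 bases before the start, and in 33.9% of all promoters. The NK2 and C/EBP letters were in none of these 3 windows, and in 10.1% and 9.56% of all promoters. No matches overlapped.

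Ros1 lies on chromosome 10 at 52044863 to 52195398 (GRCm38, Entrez number 19886, protein coding) and encodes a receptor kinase related to ALK that is activated by NELL2 in the mouse epididymis. It had 54, 128 and 21 counts in artemisinin replicates 1, 2 and 3, against 5979, 2351 and 2818 counts in model replicates 1, 2 and 3. This is 1.995, 4.03 and 0.601 normalised CPM in artemisinin mice, against 181.5, 72.6 and 88.8 normalised CPM in model mice. The highest artemisinin value, of replicate 2, was far below the lowest model value, of replicate 2. The log2 fold change was −5.70 ± 0.71 (SE, n = 3 per group), 51.8-fold lower, with an edgeR adjusted p of 0.0139. It was the 9th lowest log2 fold change among all tested genes. The call was lost without artemisinin replicate 1 (adjusted p = 0.0517), model replicate 1 (0.0654) or model replicate 3 (0.0677), and with limma-voom weights per group (0.0653), with log2 fold changes of −5.64, −5.20, −5.85 and −5.99. The log2 fold change was −6.50 without artemisinin replicate 2, which is a change of over 1.5-fold.

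Met lies on chromosome 6 at 17463349 to 17573980 and encodes the HGF receptor. It stood at 46.4, 72.0 and 30.6 normalised CPM in artemisinin mice, against 175.4, 164.5 and 170.2 in model mice. The model values were close together, and the artemisinin values differed by more than 2-fold among themselves, with replicate 2 highest and replicate 3 lowest, the same order as for Ros1. The log2 fold change was −1.78 ± 0.29 (SE, n = 3 per group), 3.42-fold lower (edgeR adjusted p = 0.0256). Met lost its call without artemisinin replicate 1 (adjusted p = 0.0725) or model replicate 1 (0.119), 2 (0.0627) or 3 (0.0946), with log2 fold changes between −1.84 and −1.73.

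Surfactant and other alveolar type 2 markers moved in the same direction as Ros1 and Met. Of 12 markers, all tested, 8 were called lower and 0 higher, against 2.3% and 2.17% of all tested genes. None of these markers was at 0 in a group. Their summed level was 7531 to 23171 normalised CPM in artemisinin mice, against 54243 to 81237 in model mice. In bulk tissue fewer cells of a type and less RNA per cell cannot be told apart. The mean log2 level of these markers was 2.22 lower in the artemisinin group, with replicates 1, 2 and 3 at −2.23, −1.49 and −2.96 relative to the model mean, again with replicate 2 highest and replicate 3 lowest. The mean of 11 general epithelial markers such as Epcam and Cdh1 differed by −0.64.

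Set against the type 2 marker mean of its own library, Ros1 stood at −7.96, −7.69 and −8.93 on the log2 scale in artemisinin mice, against −3.98, −4.75 and −4.69 in model mice. Ros1 was thus lower by a further 3.72 ± 0.45 log2 units (SE) beyond these markers, with no overlap between the groups. The exact two-sided permutation p was 0.1, the smallest that 3 against 3 allow. Leaving out any 1 library gave differences between −3.97 and −3.35. Met against the same markers was at −3.43, −3.53 and −3.30 in artemisinin mice and −4.03, −3.57 and −3.75 in model mice, a difference of 0.36 ± 0.15 (exact two-sided p = 0.1). Met therefore differed less than the type 2 marker mean did, and by 1.22 more than the general epithelial mean, a comparison chosen after its values were seen.

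**Figure D2:**
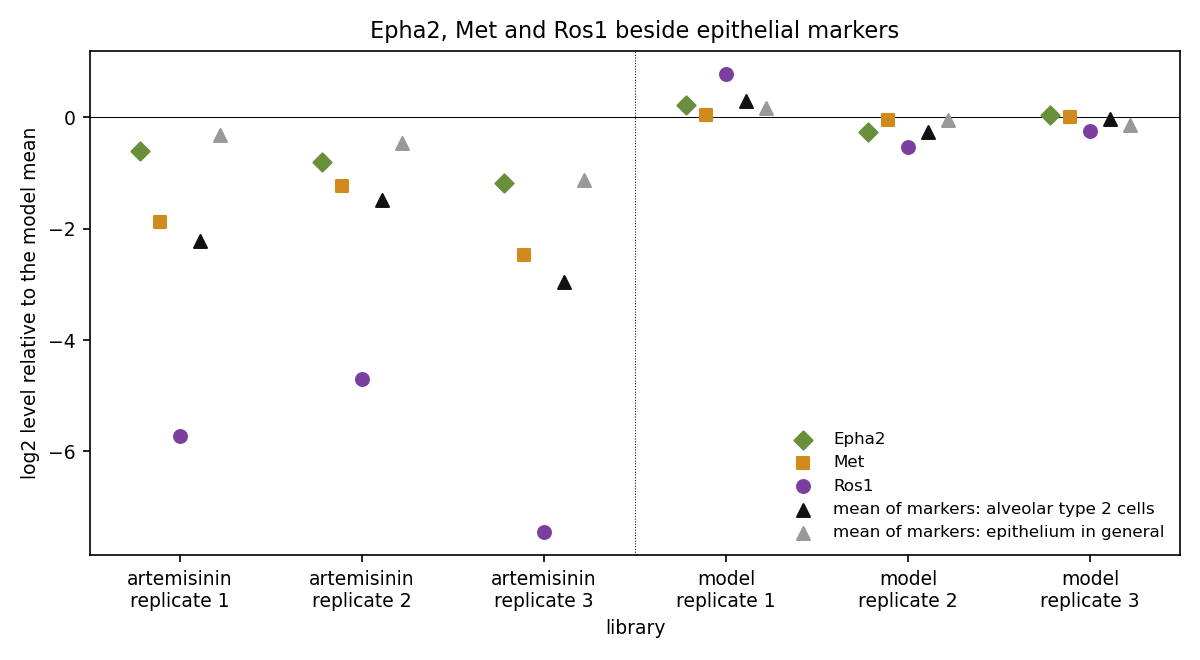
Log2 level relative to the mean of the model libraries, for Epha2, Met and Ros1 and for the mean of 2 marker lists, with libraries along the horizontal axis. In the artemisinin libraries Met lies near the alveolar type 2 mean, Epha2 near the general epithelial mean and Ros1 well below both.

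The genes whose log2 levels followed Ros1 most closely over the 6 libraries were Sftpb, Dram1, Myo3b, Pctp and Napsa, with Pearson r between 0.997 and 0.999 among 14389 genes. Sftpb encodes surfactant protein B and Napsa the type 2 cell protease napsin A. Those most like Met were Abca3, Zfp385b, Frs2, Scmh1 and Sftpa1, with r between 0.994 and 0.995. Abca3 encodes the lipid transporter of lamellar bodies. These are descriptions over 6 points in 2 separated groups, and size is not part of the measure, as Pctp had a log2 fold change of −0.35 and Sftpb of −2.39.

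Genes next to Ros1 on chromosome 10 differed far less than Ros1. Of 6 genes in the table that start within 500 kb of it, 5 were tested and 0 were called by edgeR. Dcbld1, the nearest tested gene, had 12.2, 13.9 and 13.0 normalised CPM in artemisinin mice, against 26.5, 14.3 and 18.6 in model mice (log2 −0.60 ± 0.25, SE; edgeR adjusted p = 0.189). Gopc, whose product is a Golgi protein, had log2 −0.27 ± 0.13 (SE; edgeR adjusted p = 0.235), and Nus1, for a subunit of an enzyme of dolichol synthesis, had −0.42 ± 0.16 (SE; 0.171). Artemisinin values of Dcbld1, Gopc and Nus1 all lay below the model values, as did those of 17.3% of all tested genes. Fam162b and Gprc6a overlapped between the groups, and Vgll2 was counted in artemisinin replicate 2 alone.

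Partners of ROS1 in human fusion genes formed a list of 13, all tested. Of these 11 had negative and 2 positive log2 fold changes (median −0.27, against 0.04 over all tested genes). In 8 all artemisinin values lay below all model values and in 1 above, against 17.3% and 16.3% of all tested genes. By edgeR 0 were called, with 1 higher and 5 lower at an unadjusted p under 0.05 (24.7% of all tested genes), and 4 lower by DESeq2 and 1 lower by limma-voom and by limma on FPKM. Slc34a2, a phosphate transporter gene that is also in the type 2 marker list, stood at 587.1, 1719 and 385.7 normalised CPM in artemisinin mice, against 5384, 3832 and 4745 in model mice (log2 −2.37 ± 0.56, SE; edgeR adjusted p = 0.0598). It was −3.26 without artemisinin replicate 2 (edgeR adjusted p = 0.00879), and it was called with DESeq2 (adjusted p = 1.89e-05), limma-voom (0.0261) and limma on log2(FPKM + 0.1) (0.038). Tpm3, a tropomyosin gene, had log2 −1.17 ± 0.31 (SE; edgeR adjusted p = 0.0818).

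Mst1r lies on chromosome 9 at 107906858 to 107920383. It had 8.498, 8.19 and 5.41 normalised CPM in artemisinin mice, against 2.25, 3.52 and 3.31 in model mice. All artemisinin values were above all model values, at a log2 fold change of 1.28 ± 0.33 (SE) that missed the threshold over all genes (edgeR adjusted p = 0.0746; DESeq2 adjusted p = 0.00331). Met and Mst1r thus had log2 fold changes of opposite sign. Mst1, the gene of the RON ligand, had 1.48, 1.20 and 1.97 normalised CPM in artemisinin mice and 0.334, 0.741 and 0.567 in model mice (log2 1.496 ± 0.52, SE; edgeR adjusted p = 0.143). Ciliated cell markers had a higher mean in the artemisinin group by 1.19 on the log2 scale, with 0 of 6 called by edgeR, and their summed level ranged from 146.3 to 380.3 normalised CPM in artemisinin mice and from 81.7 to 183.2 in model mice. Relative to the ciliated marker mean Mst1r stood at −2.67, −1.37 and −3.01 in artemisinin mice, against −2.26, −2.73 and −2.32 in model mice. The group difference was 0.09 ± 0.52 (SE; exact two-sided p = 0.9). Relative to the general epithelial mean the difference was 1.92 ± 0.29 (SE; exact two-sided p = 0.1). Both comparisons were chosen after their values were seen. Some other marker lists, among them club cells, also had a higher mean in the artemisinin group, while others did not. Mst1r was not set against those.

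Epha2 lies on chromosome 4 at 141301221 to 141329384 and encodes a receptor for A-type ephrins on epithelial cells. It had 82.8, 72.3 and 55.9 normalised CPM in artemisinin mice, against 148.0, 105.1 and 130.0 in model mice. The groups did not overlap, and the log2 fold change of −0.86 ± 0.20 (SE) just missed the threshold (edgeR adjusted p = 0.0556; DESeq2 adjusted p = 0.0019). Against the general epithelial marker mean the difference was −0.23 ± 0.15 (SE; exact two-sided p = 0.2), with overlapping groups. Against the type 2 marker mean it was 1.36 ± 0.34 (SE; exact two-sided p = 0.1), with all artemisinin values above all model values. Efna1, the gene of ephrin A1, had log2 −0.34 ± 0.24 (SE; edgeR adjusted p = 0.407).

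Hgf lies on chromosome 5 at 16553495 to 16619439. It had 4.69, 23.0 and 24.3 normalised CPM in artemisinin mice, against 24.8, 24.7 and 29.8 in model mice. Artemisinin replicate 1 was low and the others were just under the model values, so the log2 difference of −0.61 ± 0.53 (SE; edgeR adjusted p = 0.496) became −0.16 without that library. Relative to the mean of 8 fibroblast markers Hgf stood at −5.16, −3.73 and −2.63 on the log2 scale in artemisinin mice, against −2.25, −2.58 and −2.13 in model mice, again with artemisinin replicate 1 lowest and artemisinin replicate 3 close to the model mice. Artemisinin replicate 1 was low in Axl as well.

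Axl (chromosome 7, 25756500 to 25788924), whose product binds the bridging ligand GAS6 on dying cells, had 93.7, 266.7 and 255.5 normalised CPM in artemisinin mice, against 298.9, 234.0 and 246.3 in model mice. The groups overlapped, and the log2 difference of −0.34 ± 0.37 (SE; edgeR adjusted p = 0.590) was 0.01 without artemisinin replicate 1. The macrophage marker mean was also lowest in that library, at −1.33 relative to the model on the log2 scale. The summed level there was 944.0 normalised CPM, against 3141 and 4996 in the other artemisinin mice and 2425 to 3747 in model mice. Chil3 made up most of it in every library. The list was mixed, with Marco called lower (log2 −2.50, edgeR adjusted p = 0.0303) and Csf1r called higher. In artemisinin replicate 1 Csf1r stood at 205.4 normalised CPM, against 113.2 to 121.2 in model mice. Relative to the macrophage marker mean, Axl was at 1.33, 1.37 and 2.002 in artemisinin mice and 1.504, 1.40 and 1.46 in model mice. Gas6 and Pros1, the ligand genes, had log2 fold changes of −0.41 ± 0.22 and −0.12 ± 0.20 (SE; edgeR adjusted p = 0.294 and 0.733).

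Kit, Igf1r, Ddr1 and Ret were not called. Kit (chromosome 5, 75574987 to 75656722), the stem cell factor receptor gene of mast cells and of some lung endothelium, had 80.4, 86.8 and 109.0 normalised CPM in artemisinin mice, against 63.6, 112.7 and 146.2 in model mice (log2 −0.22 ± 0.29, SE; edgeR adjusted p = 0.655). Its level varied by more than 2-fold among the model mice alone, and its ligand gene Kitl had log2 −0.22 ± 0.30 (SE). Relative to 8 endothelial markers Kit lay between −1.71 and −1.30 in artemisinin mice and between −1.52 and −0.88 in model mice. Mast cell markers had a mean log2 level of −0.14, 0.75 and −1.02 in artemisinin mice relative to the model mean. Of 6 tested, Hdc, the histidine decarboxylase gene, was called lower at 67.96 to 87.6 normalised CPM in artemisinin mice, against 168.5 to 261.6 in model mice, and it made up most of the summed level of 75.3 to 93.7 in artemisinin mice and 173.4 to 266.0 in model mice. The other 6 of the 7 markers overlapped between the groups.

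Igf1r (chromosome 7, 67952257 to 68233668), the receptor gene of the insulin-like growth factors, had 95.3, 93.4 and 99.6 normalised CPM in artemisinin mice, against 73.4, 88.9 and 77.5 in model mice. The groups were separate but close, at log2 0.27 ± 0.13 (SE; edgeR adjusted p = 0.248). Ddr1 (chromosome 17, 35681567 to 35704741), a collagen receptor gene of epithelium, had 75.9, 79.9 and 59.0 normalised CPM in artemisinin mice and 79.3, 73.3 and 62.9 in model mice. Its log2 fold change was −0.01 ± 0.16 (SE; edgeR adjusted p = 0.986), and its sign flipped to 0.10 with scaling by library totals, a scaling that moved the median of all genes to 0.15. Ret (chromosome 6, 118151748 to 118197744), the receptor gene of the GDNF family, had the lowest mean FPKM in model mice. It had 2.40, 2.74 and 4.27 normalised CPM in artemisinin mice and 3.31, 3.43 and 4.51 in model mice (log2 −0.26 ± 0.36, SE; edgeR adjusted p = 0.684).

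**Figure D3:**
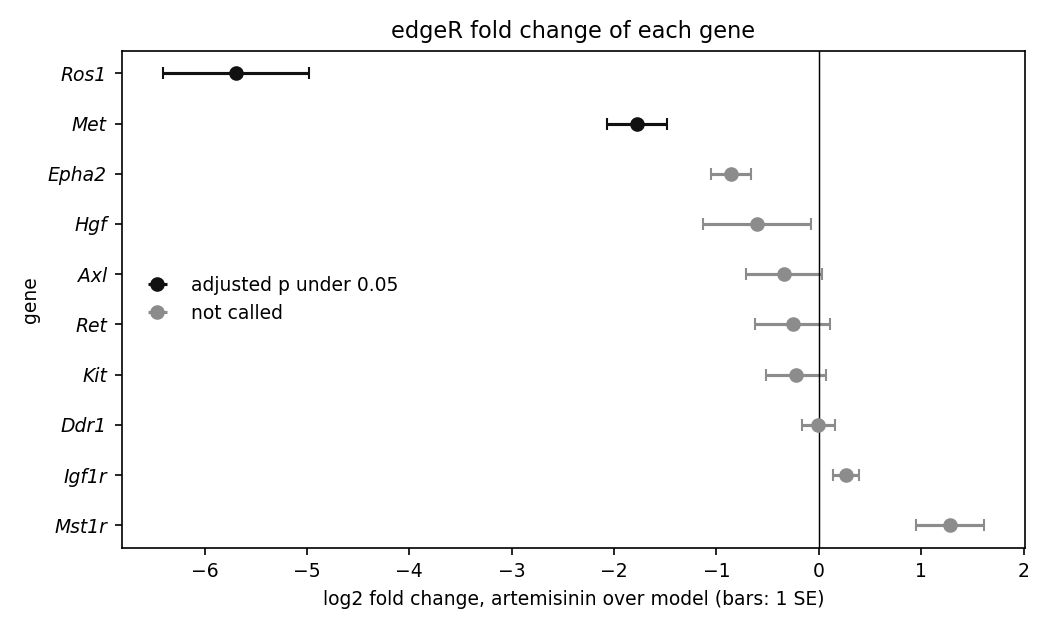
Log2 fold change of artemisinin over model from edgeR for each gene, with bars of 1 standard error. Black points passed an adjusted p of 0.05: Ros1 at −5.70 and Met at −1.78.

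Per gene length, Axl was the most abundant member in both groups, at 38.8 ± 17.8 FPKM in artemisinin mice and 46.0 ± 5.37 FPKM in model mice (SD, n = 3). The order in artemisinin mice was Axl, Kit, Epha2, Ddr1, Igf1r, Met, Hgf, Mst1r, Ret and Ros1, and only the steps from Epha2 to Ddr1 and from Mst1r to Ret were without overlap between libraries. In the model mice it was Axl, Epha2, Met, Kit, Ros1, Hgf, Ddr1, Igf1r, Mst1r and Ret, where the neighbours from Met to Ddr1 and the last pair overlapped. Ros1 had 0.260 ± 0.194 FPKM in artemisinin mice and 12.7 ± 6.32 FPKM in model mice, a level above that of 18.6% and 71.5% of all genes. Met had 7.37 ± 2.83 FPKM in artemisinin mice and 23.7 ± 0.344 FPKM in model mice.

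The summed FPKM of the 9 receptors was 82.8, 111.7 and 108.1 in artemisinin mice, against 156.8, 136.8 and 148.3 in model mice. Ros1 held 0.259% ± 0.175 of that sum in artemisinin mice and 8.46% ± 3.68 in model mice (SD, n = 3 per group). The Met share was 7.38% ± 2.67 in artemisinin mice and 16.1% ± 0.891 in model mice. Axl took 37.1% ± 13.1 in artemisinin mice, where replicate 1 had 22.1%, and 31.2% ± 1.98 in model mice.

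**Figure D4:**
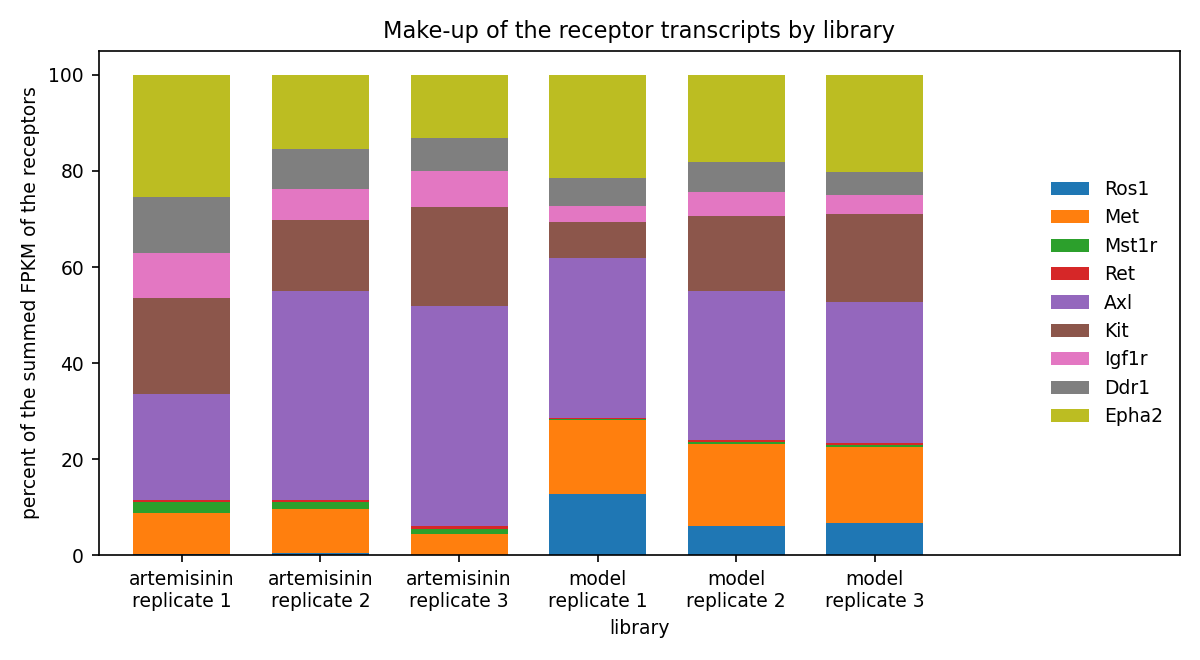
Share of each of the 9 receptors in their summed FPKM, with a stacked bar for each library, artemisinin on the left. The Ros1 and Met segments are wide in the model libraries and narrow in the artemisinin libraries, and the Axl segment is narrow in artemisinin replicate 1.

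Ligands and co-receptors formed a list of 27, of which 25 were in the table and 24 were tested. By edgeR 0 were called, with 4 higher and 1 lower at an unadjusted p under 0.05 (24.7% of all tested genes), 1 higher by DESeq2, and 0 by limma-voom and by limma on FPKM. The median log2 fold change was 0.19. Nell2, the gene of the ROS1 ligand, had 0, 13 and 4 counts in artemisinin mice and 0 in each of the model mice. Col1a2, a collagen chain gene, stood at 257.9 ± 54.8 normalised CPM in artemisinin mice and 175.3 ± 17.1 in model mice (SD, n = 3 per group; edgeR adjusted p = 0.140). Gdnf, a ligand gene of RET, had 10.7 ± 5.29 normalised CPM in artemisinin mice and 20.1 ± 1.43 in model mice (edgeR adjusted p = 0.166).

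Among 22 tested genes of a list drawn up for HGF activation and Met shedding or turnover, 2 fell and 1 rose. The list also held genes of other kinds, such as Sdc1 and Itgb4. The shares over all tested genes were 2.3% lower and 2.17% higher. The median log2 fold change of the list was −0.35. Hpn encodes hepsin, a surface protease that can activate HGF. It had 22.9, 15.3 and 11.3 normalised CPM in artemisinin mice, against 74.1, 48.4 and 51.4 in model mice, a 3.51-fold fall (edgeR adjusted p = 0.0251). Sdc1, the gene of the heparan sulfate proteoglycan syndecan 1, fell 2.70-fold (edgeR adjusted p = 0.0496). Itgb4, the gene of the integrin β4 subunit of hemidesmosomes, rose 2.49-fold to 29.0 ± 6.29 normalised CPM in artemisinin mice, against 11.6 ± 1.99 in model mice (SD, n = 3 per group; edgeR adjusted p = 0.0280).

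Of 27 adaptors and phosphatases, all tested, 2 fell and 1 rose by edgeR, against 2.3% and 2.17% of all tested genes. DESeq2 called 8 lower and 3 higher, and limma-voom 1 lower and 1 higher. In 14 all artemisinin values lay below all model values and in 5 above, against 17.3% and 16.3% of all tested genes. The median log2 fold change was −0.24. Grb7, for an adaptor of several receptors, fell 2.23-fold (edgeR adjusted p = 0.0478), and Shc1, for the adaptor that links receptors to GRB2, fell 1.72-fold (edgeR adjusted p = 0.0387). Ptpn6, the gene of the phosphatase SHP-1 of blood cells, which also acts on ROS1 in the mouse, rose 1.59-fold (edgeR adjusted p = 0.0464). Neutrophil markers were higher beside it, with 6 of 9 called higher, against 2.17% of all tested genes. Their summed level was 863.8 to 4884 normalised CPM in artemisinin mice, against 151.4 to 208.2 in model mice. Their part in the Ptpn6 difference was not tested.

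IGF binding proteins and related receptors numbered 10 tested of 12, with 0 called by edgeR or limma-voom, 1 lower by DESeq2 and by limma on FPKM, and 1 higher and 1 lower at an unadjusted p under 0.05 (24.7% of all tested genes). Igfals, the gene of the acid-labile subunit that carries IGFs in plasma, had 0.628, 1.10 and 0.315 normalised CPM in artemisinin mice and 7.10, 2.56 and 4.60 in model mice (edgeR adjusted p = 0.0504). Igfbp5 had 328.0 ± 124.9 normalised CPM in artemisinin mice and 187.2 ± 38.3 in model mice (SD, n = 3 per group; edgeR adjusted p = 0.175).

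Of 38 other receptor tyrosine kinases, 31 were tested, and 3 fell and 1 rose, against 2.3% and 2.17% of all tested genes. The median log2 fold change of the list was −0.10. Epha7, an ephrin receptor gene, had 3.07, 3.43 and 2.29 normalised CPM in artemisinin mice, against 21.5, 17.2 and 17.6 in model mice, or −2.68 ± 0.24 on the log2 scale (SE; edgeR adjusted p = 0.00707). Both groups were tight and far apart. Ror1, an orphan receptor gene of the Wnt5a pathway, and Epha4 fell 3.14-fold and 2.26-fold (edgeR adjusted p = 0.0245 and 0.0290). Csf1r, the receptor gene of macrophage colony-stimulating factor, rose 1.83-fold (edgeR adjusted p = 0.0216), while the summed macrophage markers, of which Csf1r is 1, overlapped between the groups. Alk, a close relative of Ros1 and itself a fusion gene in human lung cancer, had 0 counts in each artemisinin library and 6, 1 and 5 counts in the model libraries, too few to test.

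Of these 10 called pathway genes, 10 remained called when artemisinin replicate 2 was left out, 5 when replicate 3 was, and 3 (Hpn, Csf1r and Epha7) when replicate 1 was. Leaving out model replicate 1 left 0 by edgeR, and leaving out model replicate 2 or 3 left Epha7 alone. The log2 fold change of Ror1, for example, was −1.65 with all libraries and −1.80 without model replicate 2, where its edgeR adjusted p was 0.0578. With limma-voom 7 remained called, all but Grb7, Epha4 and Ror1.

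**Figure D5:**
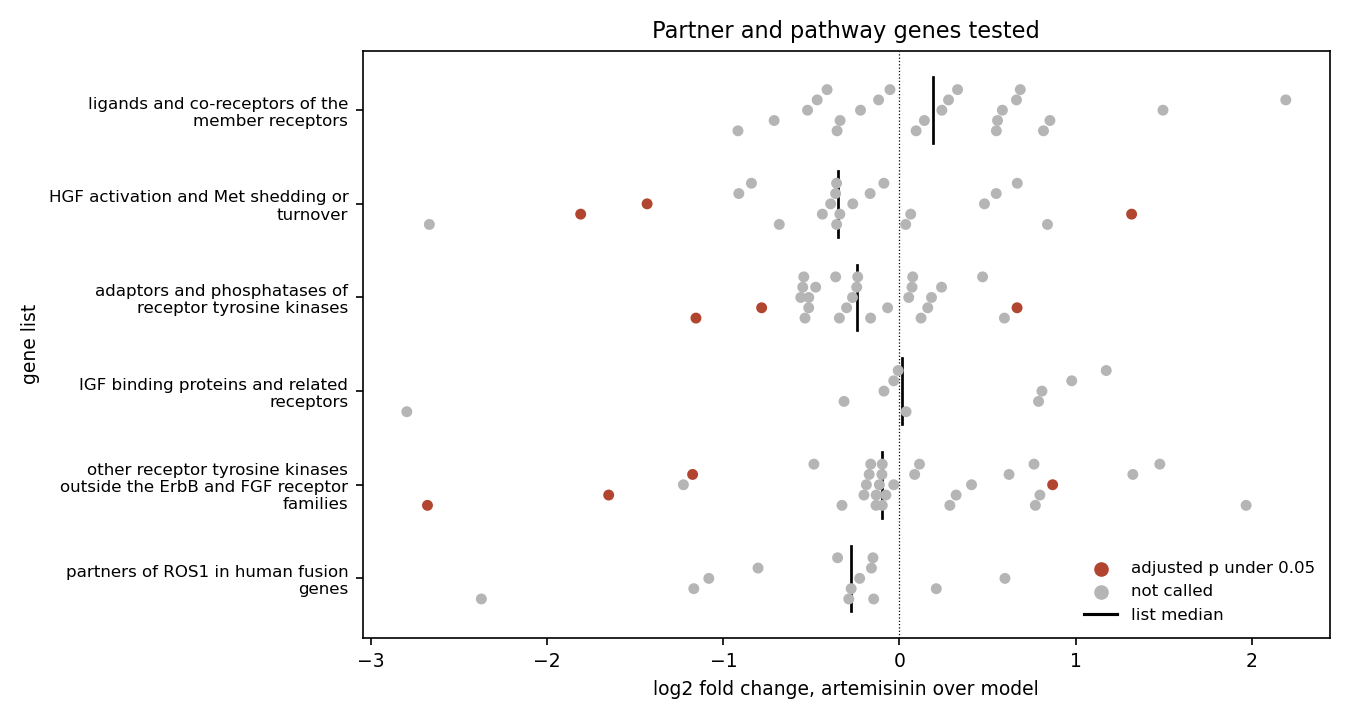
Log2 fold change of artemisinin over model for each tested gene of the 6 pathway lists, with red points at an adjusted p under 0.05 and a black line at the list median. Called genes lie on both sides of 0 in 3 lists, and the ligand, IGF and fusion partner lists hold none.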

How the data were processed

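RNA came from a mirVana extraction and went into TruSeq Stranded mRNA libraries, per the labels' protocols, and the genome build was GRCm38 (mm10), per the submitters' processing notes. The aligner, counter, annotation and strand setting are not given in the sources used here. Whole-number read counts per gene, without normalization, were deposited by the authors. They also deposited FPKM, which matched counts divided by library total and a value per gene (largest relative gap 3.5e-08 over 12894 genes), so both are 1 measurement. No member overlapped another gene of the table. Each library was taken as 1 mouse, as the design text calls the samples mice. Where 2 libraries come from 1 animal the p-values would measure technical spread only.

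The test of counts was run in edgeR 4.0.16 under R 4.3.3 (steps filterByExpr, TMM, estimateDisp, robust glmQLFit, glmQLFTest). Alternatives were scaling by totals or DESeq2 size factors, no filter, DESeq2 1.42.0, limma 3.58.1 (voom with weights per group, and trend on log2(FPKM + 0.1) or log2(FPKM + 1) at a mean FPKM of at least 0.5, scales that understate changes of low genes), the replicate number as a block, and each library left out. The main edgeR fit, DESeq2, limma-voom and limma on log2(FPKM + 0.1) were tested on simulated data, and the other alternatives were not. Relative levels used log2 CPM with a prior count of 0.5. Named pathway genes were up to 4 called genes of smallest p per list, or the 2 of smallest p, besides ligands of members and genes chosen after their values were seen (Alk, Nell2 and Gdnf). Genes most like a called member needed a mean of at least 1 CPM. The members and lists were chosen with earlier results of these data known.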

Additional observations from a re-analysis of the deposited data

How the results depend on the processing

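The Ros1 and Met log2 fold changes were negative in all 14 alternatives run. Calls were lost in 4 of them for Ros1 and in 5 for Met. For Ros1 these were limma-voom weights per group (−5.99) and leaving out artemisinin replicate 1, model replicate 1 or model replicate 3. For Met they were the replicate number as a block (−1.86, adjusted p = 0.0518) and leaving out artemisinin replicate 1 or any model library. No pairing by replicate number was seen, as deviations of same-numbered libraries correlated at 0.00153, −0.0852 and 0.0303. With 3 libraries per group these values cannot exclude a pairing. The block left 65 genes higher and 63 lower, with 1 member lower and 2 of the 10 called pathway genes (Hpn and Epha7). Against 331 genes higher and 351 lower, scaling by totals gave 464 higher and 319 lower, and DESeq2 called 1234 genes higher and 1052 lower, and of the members 1 higher (Mst1r, 1.28) and 3 lower (Epha2 with −0.87). With limma-voom 1 member was lower. Leaving out 1 library gave 6 to 670 genes higher, 11 to 713 lower, 0 to 2 members lower, and log2 fold changes of −6.50 to −5.20 for Ros1 and −2.14 to −1.57 for Met. It reversed values that were not called: Axl without artemisinin replicate 1 (0.0074, range −0.58 to 0.0074), Kit without model replicate 3 (0.0597, range −0.49 to 0.0597), and Ddr1 without artemisinin replicate 3 (0.0767) or model replicate 1 (0.0681; range −0.10 to 0.0767). Ddr1 was also reversed with scaling by totals (0.10) and limma on log2(FPKM + 0.1) (0.0896) or log2(FPKM + 1) (0.0814). The relative level of Ros1 differed by −5.30 with general epithelial markers in place of type 2 markers as the comparator. The means of these 2 lists themselves differed between the groups by −0.64 and −2.22. Against the type 2 markers Ros1 differed by −3.08 on log2(FPKM + 0.1), where its FPKM in artemisinin mice was 0.0733 to 0.461. The cause of the other differences between settings was not tested. Ret had no value from limma on FPKM, as it was under the minimum. Its counts of 65 to 149 per library limit its precision.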
